A study of Mus musculus with 8 samples.

Results

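The polyamine genes described here were *Arg1*, *Odc1*, *Azin1*, *Oaz1*, *Oaz2*, *Amd1*, *Srm*, *Sms*, *Sat1* and *Smox*, and they were taken from the arrays as all probes whose RefSeq accession belonged to 1 of these 10 genes. 9 of the 10 genes had a probe, 18 probes in all, out of 55458 probes kept and 21095 genes named. No probe kept here carried the accession of *Amd1*, so its level was not analysed here. Whole skin of female FVB/N mice was profiled on 8 one-colour Agilent arrays, 2 for each of 4 groups. The groups were CD109-/- mice 24 h after DMBA (7,12-dimethylbenz(α)anthracene, a polycyclic aromatic hydrocarbon that starts skin tumours in the mouse), CD109+/+ mice 24 h after DMBA, untreated CD109-/- mice and untreated CD109+/+ mice, the untreated skin being described in the labels as given acetone, the usual solvent of DMBA. CD109-/- mice lack CD109, a membrane-anchored glycoprotein that restrains TGF-β signalling. The age of the array animals and the dose they received were not given in the sources used here, and the labels do not say whether the 2 arrays of a group came from separate mice, and a p-value here therefore covers no more than the variation among these arrays.

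Polyamines (putrescine, spermidine and spermine) are small positively charged molecules that bind nucleic acids and are needed for cell growth. Arginase turns arginine into ornithine, and ornithine decarboxylase turns ornithine into putrescine in the rate-limiting step. Antizymes bind ornithine decarboxylase and send it to the proteasome, while antizyme inhibitor holds antizymes away from it. Spermidine synthase and spermine synthase lengthen putrescine with aminopropyl groups that come from decarboxylated S-adenosylmethionine, the product of *Amd1*. Spermidine/spermine acetyltransferase and spermine oxidase break the longer polyamines down. In mouse skin, ornithine decarboxylase is a classic marker of tumour promotion and of growing hair follicles.

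Levels are given as log2 signal, the log2 of the processed spot intensity minus the log2 of the 75th percentile of that array, so a value of 1 unit is a factor of 2 and levels of different probes are not set against each other. All 18 probes were well above background on all 8 arrays. The *Cd109* probe, whose place relative to the deleted part is not known, checked the labels first. Its log2 signal was −7.85 and −7.52 on the 2 CD109-/- DMBA arrays, against 1.09 and 1.67 on the CD109+/+ DMBA arrays, at least 121-fold lower after DMBA by the floor of signals well above background. It was 1.89 and −7.90 on the untreated arrays labelled CD109-/-, against 2.29 and −6.28 on those labelled CD109+/+. *Cd109* was therefore well above background on the array labelled CD109-/- untreated replicate 1 and not on the array labelled CD109+/+ untreated replicate 2, against both labels. Each test below was made on the arrays as labelled, and again with these 2 arrays exchanged. Because the arrays' own signals pointed to the exchange, tests made with it are no independent evidence about the genotype. The comparison of genotypes after DMBA uses neither array in its estimate, and only its error changes with the exchange. With the exchange, the untreated arrays counted as CD109-/- are both numbered replicate 2 and those counted as CD109+/+ both replicate 1. Genotype and replicate number in untreated skin therefore cannot be told apart in that arrangement.

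The promoters of *Smox*, the member with the clearest separation between arrays, and of *Odc1*, the rate-limiting member, are printed because DMBA acts through the aryl hydrocarbon receptor and because oxidative stress genes are read through antioxidant response elements. The bases shown run from the start of the RefSeq promoter window to the base before the first annotated base of the gene on GRCm38.p6, 5′ to 3′, and capitals mark matches on either strand to the core of the xenobiotic response element (GCGTG) or of the antioxidant response element (TGACNNNGC).
Smox, chr2:131491612-131491857, plus strand: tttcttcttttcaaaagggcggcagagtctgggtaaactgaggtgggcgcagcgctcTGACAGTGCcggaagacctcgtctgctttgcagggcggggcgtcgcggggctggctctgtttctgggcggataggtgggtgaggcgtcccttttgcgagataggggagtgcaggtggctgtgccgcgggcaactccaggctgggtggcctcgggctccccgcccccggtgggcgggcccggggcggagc
Odc1, chr12:17544623-17544807, plus strand: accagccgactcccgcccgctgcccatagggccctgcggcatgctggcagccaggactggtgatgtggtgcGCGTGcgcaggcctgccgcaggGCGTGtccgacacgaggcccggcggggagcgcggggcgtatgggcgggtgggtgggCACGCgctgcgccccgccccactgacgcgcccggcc

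The genes themselves lie at chr2:131491858-131525183 (*Smox*) and chr12:17544808-17551502 (*Odc1*). In its 300-base window, *Smox* held 1 antioxidant core, 6 GC boxes (GGGCGG, either strand) and no xenobiotic core, and *Odc1* held 3 xenobiotic cores, 4 GC boxes and no antioxidant core. None of these matches overlapped another. Over all 32851 promoter windows of the table, 12.4% held an antioxidant core, 32.4% a xenobiotic core and 35.7% a GC box. The E-box CACGTG, found in 7.2% of the windows, was in neither, which says only that these letters are not in these windows. Windows were listed for 7 of the 10 genes, and each match is a description of letters.

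As labelled, no member gene passed an adjusted p of 0.05 in any of the 7 comparisons (limma, Benjamini-Hochberg over all probes tested, the brightest probe standing for its gene). Between CD109-/- and CD109+/+ skin after DMBA, 0 of 9 genes passed, where 0.0921% of the 36921 probes tested did, and 2 of 9 had an unadjusted p under 0.05 (*Azin1* and *Arg1*), where 26.1% of all probes had one. In untreated skin the genotypes gave 0 of 9 adjusted and 0 of 9 unadjusted, against 0.00542% and 2.15% of all probes. DMBA against untreated in CD109+/+ skin gave 0 and 1 (*Arg1*), against 0.184% and 11.5% of all probes. The same contrast in CD109-/- skin gave 0 and 0, against 0% and 14.3%. The difference of the DMBA effect between genotypes gave 0 and 1 (*Arg1*), against 0% and 15.4%. Averaged over treatments, the genotypes gave 0 and 0, against 0.00271% and 12.3%, and averaged over genotypes DMBA gave 0 and 2 (*Srm* and *Arg1*), against 0.0298% and 11.5%. The methods' t-test called no member after adjustment, and 0% of all probes in each comparison. Unadjusted it called 1 member for genotype after DMBA (*Smox*), where it called 18.9% of all probes, and 3 for DMBA in CD109+/+ skin (*Azin1*, *Sms* and *Srm*), where it called 11.2%. It called 0 in the other comparisons, where the shares were 2.23% for genotype in untreated skin, 5.63% for DMBA in CD109-/- skin, 12.6% for the difference of the DMBA effect, 11.8% for genotype averaged over treatments and 12% for DMBA averaged over genotypes. The unadjusted limma counts lay near or below the share of all probes, except for DMBA averaged over genotypes, where 2 of 9 stood beside 11.5%, and the unadjusted t-test count was above its share for DMBA in CD109+/+ skin.

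**Figure D1:**
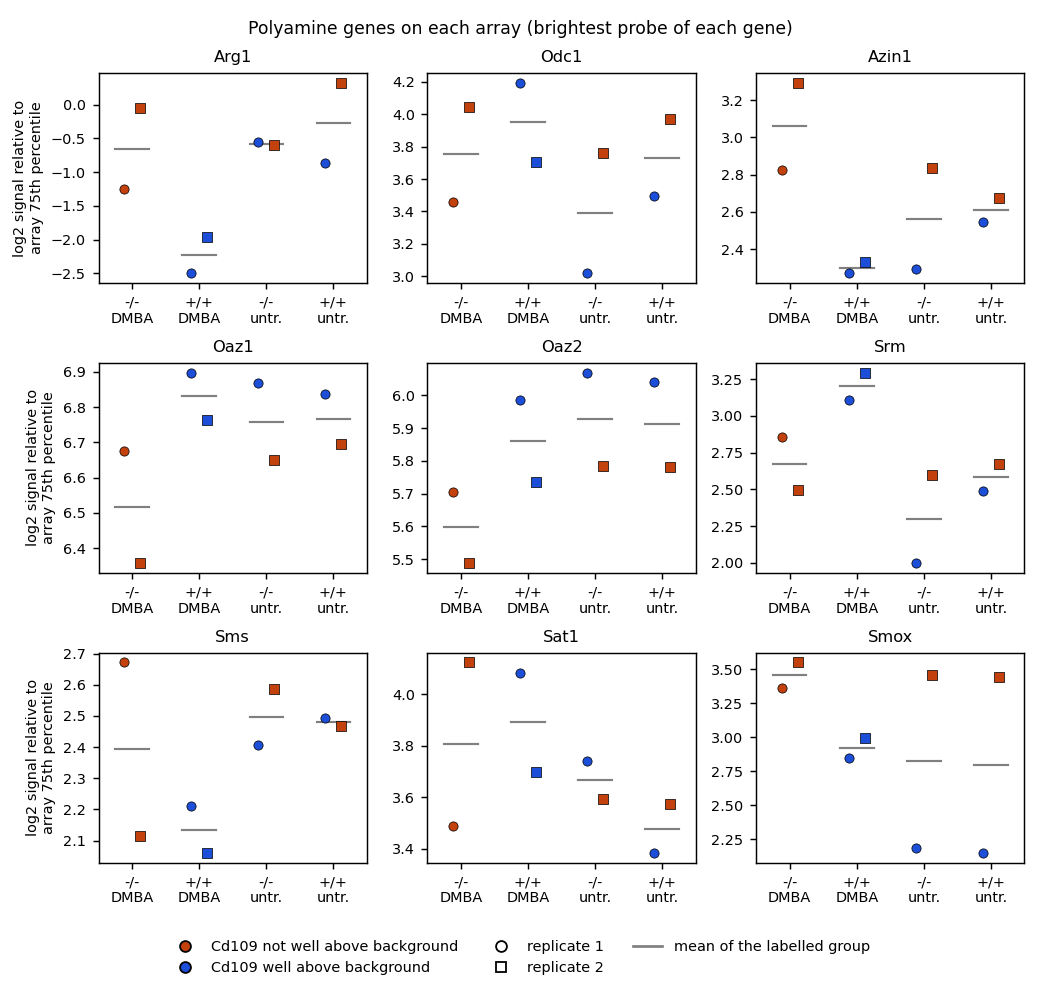
Log2 signal relative to the 75th percentile of each array (vertical axis, a separate range for each gene) of the brightest probe of 9 polyamine genes on the 8 arrays, by labelled group (DMBA or untreated, "untr."), with circles for replicate 1, squares for replicate 2 and grey bars for the mean of the labelled group. Orange arrays had *Cd109* not well above background and blue arrays well above it, and in the *Smox* panel every orange point (3.36 to 3.55) lies above every blue point (2.15 to 2.99).

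*Arg1* encodes arginase 1, which supplies ornithine and is also a marker of alternatively activated macrophages. Its log2 signal was −1.25 and −0.05 in CD109-/- skin after DMBA, against −2.50 and −1.96 in CD109+/+ skin after DMBA, and it was −0.55 and −0.60 in untreated CD109-/- skin, against −0.87 and 0.33 in untreated CD109+/+ skin. The 2 CD109+/+ DMBA arrays were the lowest of the 8, below every other array, and the untreated genotypes overlapped. As labelled, the genotype difference after DMBA was 1.58 (SE 0.54, adjusted p = 0.151, limma), a 2.99-fold higher level, and with 1 CD109-/- DMBA array left out it was 2.18 (replicate 1 omitted) or 0.98 (replicate 2 omitted). DMBA against untreated gave −1.96 (SE 0.54, adjusted p = 0.289) in CD109+/+ skin and −0.08 (SE 0.54) in CD109-/- skin, and the difference between these was 1.89 (SE 0.76, unadjusted p = 0.0485 and adjusted p = 0.324 by limma). The contrast in CD109+/+ skin was −2.56 without CD109+/+ untreated replicate 1 and −1.37 without the array labelled CD109+/+ untreated replicate 2. None of these passed. Exchanging the 2 untreated arrays left the contrast in CD109+/+ skin at −1.52 (SE 0.49, adjusted p = 0.15), still not past the threshold, and lowered the difference between genotypes to 1.01 (SE 0.69).

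The macrophage list (10 of 10 genes measured, all well above background on every array) averaged 2.89 and 2.22 log2 signal in CD109-/- skin after DMBA, against 4.19 and 4.06 in CD109+/+ skin after DMBA, where *Arg1* was lowest. Of the list, *Itgam* alone went the other way after DMBA, at 3.72 and 4.20 in CD109-/- skin, against 3.41 and 3.15 in CD109+/+ skin. In untreated skin the list averaged 4.31 and 3.38 on the arrays labelled CD109-/-, against 3.57 and 2.81 on those labelled CD109+/+. Sorted by *Cd109* signal the order turned, with 3.38 and 2.81 on the untreated arrays without it, against 4.31 and 3.57 on those with it. In whole skin, fewer cells of a type and less RNA per cell cannot be told apart, and the part of macrophage content in the *Arg1* values was not tested.

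*Odc1* encodes ornithine decarboxylase. The brightest of its 3 probes had a log2 signal of 3.46 and 4.05 in CD109-/- skin after DMBA, against 4.19 and 3.71 in CD109+/+ skin after DMBA, and 3.02 and 3.76 in untreated CD109-/- skin, against 3.49 and 3.97 in untreated CD109+/+ skin. All 4 groups overlapped with another group, and the whole range over 8 arrays was 3.02 to 4.19. As labelled, the genotype difference after DMBA was −0.20 (SE 0.37), or −0.48 and −0.69 on the other 2 probes, and DMBA against untreated averaged over genotypes was 0.29 (SE 0.26, adjusted p = 0.721, limma). With the exchange, DMBA against untreated was 0.69 (SE 0.29, adjusted p = 0.234) in CD109+/+ skin and −0.11 (SE 0.29) in CD109-/- skin. The difference between these was −0.81 (SE 0.41), −1.07 (SE 0.37) and −1.34 (SE 0.49) on the 3 probes, with unadjusted p of 0.0967, 0.0284 and 0.0356 and adjusted p of 0.305, 0.195 and 0.21 (limma). All 3 probes of *Odc1* had this sign and none passed.

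*Azin1* encodes antizyme inhibitor 1, which protects ornithine decarboxylase from antizymes. Its brightest probe gave 2.83 and 3.29 in CD109-/- skin after DMBA, against 2.27 and 2.33 in CD109+/+ skin after DMBA, so the genotypes did not overlap after DMBA. The untreated arrays gave 2.29 and 2.84 in CD109-/- skin, against 2.55 and 2.68 in CD109+/+ skin, and here they overlapped. The genotype difference after DMBA was 0.76, a 1.69-fold higher level, with an SE of 0.26 and adjusted p = 0.149 as labelled and an SE of 0.19 and adjusted p = 0.046 with the exchange (limma). The other 2 probes of *Azin1* gave 0.19 and 0.87 and did not pass in either arrangement. With the exchange the 3 probes, averaged over treatments, gave 0.55 (adjusted p = 0.0329), 0.24 (adjusted p = 0.147) and 0.56 (adjusted p = 0.184), so only the brightest passed. These *Azin1* calls held in 6 of 18 alternatives after DMBA and in 8 of 18 averaged over treatments.

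*Oaz1* and *Oaz2* encode antizymes 1 and 2, which inhibit ornithine decarboxylase and polyamine uptake. *Oaz1* gave 6.68 and 6.36 in CD109-/- skin after DMBA, against 6.90 and 6.76 in CD109+/+ skin after DMBA, and its untreated arrays lay between 6.65 and 6.87. The brighter *Oaz2* probe gave 5.71 and 5.49 in CD109-/- skin after DMBA, against 5.99 and 5.74 in CD109+/+ skin after DMBA, and its untreated arrays lay between 5.78 and 6.07. For both genes the 2 CD109-/- DMBA arrays were below both CD109+/+ DMBA arrays, by a mean of −0.31 (SE 0.19, adjusted p = 0.317) for *Oaz1* and −0.26 (SE 0.20, adjusted p = 0.419) for *Oaz2* as labelled (limma). The dimmer *Oaz2* probe gave −0.61 (SE 0.27, adjusted p = 0.212) after DMBA as labelled. With the exchange this probe gave −0.50 (SE 0.14, adjusted p = 0.0419, limma) averaged over treatments, while the brighter probe gave −0.27 (SE 0.10, adjusted p = 0.0923). The dimmer *Oaz2* probe was the 1 antizyme probe that passed in the main fit in either arrangement. Median centring with the exchange also called *Oaz1* (−0.64) and *Oaz2* (−0.59) after DMBA.

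*Srm* and *Sms* encode spermidine synthase and spermine synthase. The brighter *Srm* probe gave 2.85 and 2.50 in CD109-/- skin after DMBA, against 3.11 and 3.29 in CD109+/+ skin after DMBA. The untreated arrays gave 2.00 and 2.60 in CD109-/- skin, against 2.49 and 2.67 in CD109+/+ skin. The 2 CD109+/+ DMBA arrays were thus the highest of all 8, and every other array lay at or below 2.85. DMBA against untreated in CD109+/+ skin was 0.62 (SE 0.26, adjusted p = 0.448) as labelled and 0.96 (SE 0.21, adjusted p = 0.0725) with the exchange, and 0.62 and 0.91 on the second probe (limma). The genotype difference after DMBA was −0.53 (SE 0.26, adjusted p = 0.248) as labelled, and the difference of the DMBA effect was −0.24 (SE 0.37) as labelled and −0.92 (SE 0.30, unadjusted p = 0.0232 and adjusted p = 0.183 by limma) with the exchange. No *Srm* contrast passed in the main fit in either arrangement, while median centring with the exchange called the genotype difference after DMBA (−0.86).

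The brightest *Sms* probe gave 2.67 and 2.12 in CD109-/- skin after DMBA, against 2.21 and 2.06 in CD109+/+ skin after DMBA, and the untreated arrays lay between 2.41 and 2.59. Both CD109+/+ DMBA arrays were below all 4 untreated arrays, and DMBA against untreated in CD109+/+ skin was −0.35 (SE 0.22), −0.58 (SE 0.34) and −0.50 (SE 0.25) on the 3 probes as labelled. None passed, the smallest adjusted p being 0.528 as labelled and 0.138 with the exchange (limma). The second probe of *Sms* was lower on every DMBA array (0.50 to 1.18) than on every untreated array (1.26 to 2.04), a mean difference of −0.66 (SE 0.24, adjusted p = 0.393 as labelled, limma) that also did not pass.

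*Sat1* encodes the acetyltransferase that marks spermidine and spermine for export or oxidation. Its log2 signal was 3.49 and 4.12 in CD109-/- skin after DMBA, against 4.08 and 3.70 in CD109+/+ skin after DMBA, and 3.74 and 3.59 in untreated CD109-/- skin, against 3.38 and 3.57 in untreated CD109+/+ skin. The genotypes overlapped after DMBA, and the difference there was −0.08 (SE 0.27) and turned to 0.06 with quantile normalization and to 0.07 with the deposited value table. Averaged over genotypes, DMBA against untreated was 0.28 (SE 0.19, adjusted p = 0.631 as labelled, limma).

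*Smox* encodes spermine oxidase, which turns spermine back into spermidine and releases hydrogen peroxide. Its brighter probe gave 3.36 and 3.55 in CD109-/- skin after DMBA, against 2.85 and 2.99 in CD109+/+ skin after DMBA, and the genotypes did not overlap. On the untreated arrays labelled CD109-/- it gave 2.18 and 3.46, against 2.15 and 3.44 on those labelled CD109+/+. The 4 arrays without *Cd109* signal well above background held the 4 highest values, between 3.36 and 3.55, the 2 untreated arrays with *Cd109* signal the lowest, and the 2 CD109+/+ DMBA arrays stood between them. The second probe, designed from another transcript accession of *Smox*, showed the same order of these sets. It gave 1.26 and 1.28 in CD109-/- skin after DMBA, against 0.73 and 0.89 in CD109+/+ skin after DMBA, and 0.08 and 1.35 on the untreated arrays labelled CD109-/-, against 0.07 and 1.46 on those labelled CD109+/+.

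As labelled, *Smox* passed in no comparison: the genotype difference was 0.54 (SE 0.55, adjusted p = 0.544) after DMBA and 0.03 (SE 0.55, adjusted p = 1) in untreated skin, where each genotype held 1 high and 1 low array (limma). With the exchange, the genotype difference on the brighter probe was 0.54 (SE 0.13, adjusted p = 0.0391) after DMBA, a 1.45-fold higher level in CD109-/- skin. In untreated skin it was 1.28 (SE 0.13, adjusted p = 0.00759), a 2.43-fold higher level, and 1.34 (SE 0.12) on the second probe. Averaged over treatments it was 0.91 (SE 0.09, adjusted p = 0.00484). DMBA against untreated was 0.75 (SE 0.13, adjusted p = 0.0412) in CD109+/+ skin and 0.01 (SE 0.13, adjusted p = 0.982) in CD109-/- skin. The difference between these 2 DMBA effects was −0.75 (SE 0.18, unadjusted p = 0.00617 and adjusted p = 0.126 by limma), so the effects were not shown to differ after adjustment. Only the value averaged over treatments passed in all 18 alternatives run with the exchange, with an adjusted p of 0.00126 to 0.0294, while the value after DMBA passed in 7 of 18, that in untreated skin in 14 of 18 and that for DMBA in CD109+/+ skin in 7 of 18.

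**Figure D2:**
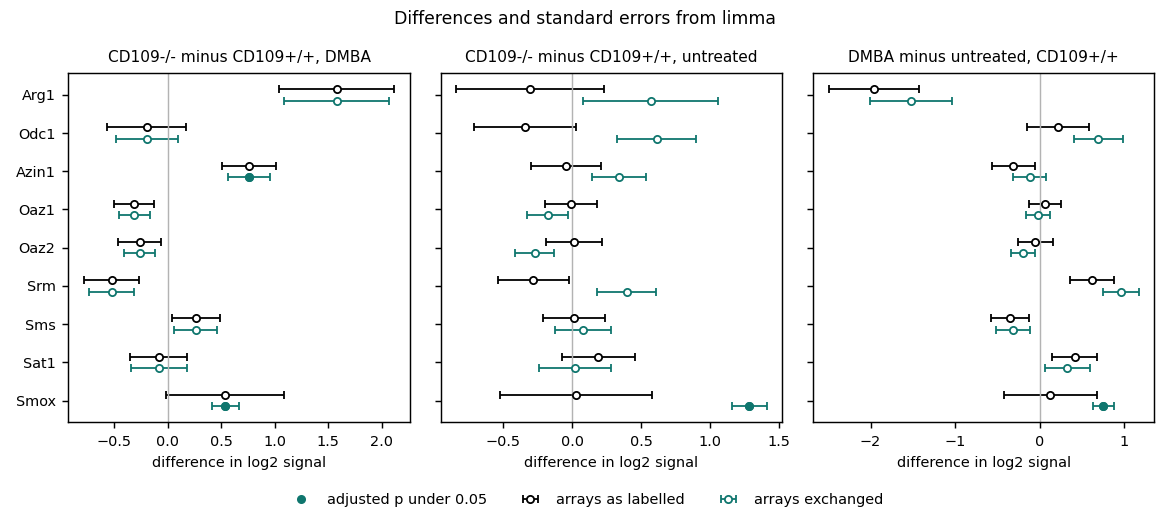
Differences in log2 signal (horizontal axis) with standard errors from limma for 9 polyamine genes (brightest probe each), for CD109-/- minus CD109+/+ skin after DMBA, the same in untreated skin, and DMBA minus untreated in CD109+/+ skin. Black is the arrays as labelled and green the 2 untreated arrays exchanged, and filled points had an adjusted p under 0.05, which were *Azin1* and *Smox* after DMBA (0.76 and 0.54), *Smox* in untreated skin (1.28) and *Smox* for DMBA (0.75), all with the exchange.

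With the exchange, 37147 probes were tested, and the share of calls over the whole array was far larger than as labelled. After DMBA, 2 of 9 member genes passed (*Azin1* and *Smox*, both higher in CD109-/- skin) where 20.1% of all probes did. In untreated skin 1 of 9 passed (*Smox*) where 8.89% did, for DMBA in CD109+/+ skin 1 of 9 (*Smox*) where 3.51% did, and for the genotypes averaged over treatments 2 of 9 (*Azin1* and *Smox*) where 30.8% did. For DMBA in CD109-/- skin 0 of 9 passed, and 0 of 9 at the unadjusted level, where 0.0135% and 17.5% of all probes did. For the difference of the DMBA effect 0 of 9 passed and 2 of 9 did so unadjusted (*Srm* and *Smox*), where 0.0269% and 21.1% of all probes did, and for DMBA averaged over genotypes 0 of 9 passed and 3 of 9 did so unadjusted, where 1.5% and 21.3% did (limma). The methods' t-test, adjusted, called *Smox* for the genotypes averaged over treatments, where it called 14.4% of all probes. It called no member elsewhere, where its shares were 0% for genotype after DMBA and for DMBA in CD109-/- skin, 0.0108% for genotype in untreated skin, 0.00269% both for DMBA in CD109+/+ skin and for the difference of the DMBA effect, and 0.0485% for DMBA averaged over genotypes. The median difference over the 9 genes after DMBA was −0.08, against 0.07 over all probes, and in untreated skin 0.34, against −0.03. With 9 genes these counts lay near the background, and nothing is read from them about the genes as a set. Leaving out 1 array, which leaves 1 array in its group, the difference after DMBA ran from 0.52 to 0.99 for *Azin1* and from 0.44 to 0.63 for *Smox*. Which genes passed depended on the array left out.

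The means of the proliferation and hair shaft keratin lists moved with the arrays that held high *Smox*, as did other lists. Inner root sheath was higher on these 4 arrays (5.17 to 7.25, against −3.15 to −2.40). Macrophages (2.22 to 3.38, against 3.57 to 4.31) and endothelium (−0.55 to −0.03, against 0.60 to 0.89) were lower there. Basal epidermis, adipocytes and skeletal muscle were also lower on all 4. Fibroblasts, T cells, neutrophils, and differentiated and activated epidermis overlapped. The proliferation list (8 of 8 genes measured, all well above background on every array) averaged 3.01 and 2.86 log2 signal in CD109-/- skin after DMBA, against 2.60 and 2.76 in CD109+/+ skin after DMBA. On the untreated arrays labelled CD109-/- it averaged 1.57 and 3.02, against 1.80 and 2.93 on those labelled CD109+/+. The 4 arrays with the highest *Smox* thus also held the 4 highest means of the list. Among its genes, *Mki67*, *Top2a*, *Ccnb1* and *Mcm2* each had this order, and *Cdk1*, *Pcna*, *Mcm5* and *Birc5* did not. The array CD109-/- DMBA replicate 2 gave 1.33 for *Cdk1*, 4.51 for *Pcna* and 2.17 for *Mcm5*, below both CD109+/+ DMBA arrays. Hair shaft keratins (8 of 10 genes measured) averaged 2.27 and 7.44 in CD109-/- skin after DMBA, against −4.57 and −4.63 in CD109+/+ skin after DMBA, and −4.26 and 4.28 on the untreated arrays labelled CD109-/-, against −3.99 and 6.13 on those labelled CD109+/+. All 8 keratins were well above background on the 4 arrays without *Cd109* signal and 5 of 8 on the other 4. The part of proliferating cells, hair follicle cells and the cells of the other lists in the values of *Smox* and the other members was not tested. DMBA arrays lay in row 1 of the slide and untreated arrays in row 2, and effects of DMBA and of slide row cannot be told apart. Arrays labelled CD109+/+ lay in columns 1 and 2 and those labelled CD109-/- in columns 3 and 4. Effects of genotype and of slide column thus cannot be told apart as labelled, and after DMBA this also holds with the exchange.

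Of 24 other genes of polyamine metabolism and transport, all had a probe and 22 were tested. *Aoc1* was tested only because it was well above background in CD109-/- skin after DMBA, so it is left out of the counts of genes that passed. As labelled, 0 of the other 21 genes passed in each of the 7 comparisons (limma), where 0% to 0.184% of all probes did. For genotype after DMBA, 3 of the 22, with *Aoc1* among the 22, had an unadjusted p under 0.05 (limma), where 26.1% of all probes had one. With the exchange, 3 of the 21 genes were higher in CD109-/- skin after DMBA and none lower (20.1% of all probes passed). In untreated skin 2 were higher and none lower (8.89% of all probes), and averaged over treatments 2 were higher and 2 lower (30.8% of all probes). None of the 21 passed in the remaining 4 comparisons by limma. These counts lay near or below the share of all probes.

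2 genes that handle arginine are described first, and both are named because they passed with the exchange, which follows the *Cd109* signal. *Arg2*, the mitochondrial arginase, gave −0.40 and −0.32 in CD109-/- skin after DMBA, against −2.08 and −2.25 in CD109+/+ skin after DMBA, and −2.41 and −0.08 on the untreated arrays labelled CD109-/-, against −2.59 and 0.03 on those labelled CD109+/+. The 4 arrays without *Cd109* signal lay between −0.40 and 0.03 and the other 4 between −2.59 and −2.08. The genotype difference in *Arg2* after DMBA was 1.80, a 3.49-fold higher level, with adjusted p = 0.301 as labelled (SE 1.03) and 0.00772 with the exchange (SE 0.14), and in untreated skin it was 0.03 (SE 1.03) as labelled and 2.47 (SE 0.14, adjusted p = 0.00425) with the exchange (limma). Of 18 alternatives with the exchange, the *Arg2* difference passed in 14 after DMBA and in 17 in untreated skin.

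*Slc7a1*, the cationic amino acid transporter that carries arginine into cells, gave 3.53 and 4.53 in CD109-/- skin after DMBA, against 2.67 and 2.64 in CD109+/+ skin after DMBA, and 2.28 and 4.20 on the untreated arrays labelled CD109-/-, against 2.85 and 4.20 on those labelled CD109+/+. The 4 arrays without *Cd109* signal were again the 4 highest. The difference in *Slc7a1* after DMBA was 1.38 (adjusted p = 0.287 as labelled and 0.0458 with the exchange), in untreated skin with the exchange 1.64 (adjusted p = 0.0462), and averaged over treatments with the exchange 1.51 (SE 0.25, adjusted p = 0.0138, limma). It passed in 8, 10 and 17 of the 18 alternatives in these 3 comparisons.

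**Figure D3:**
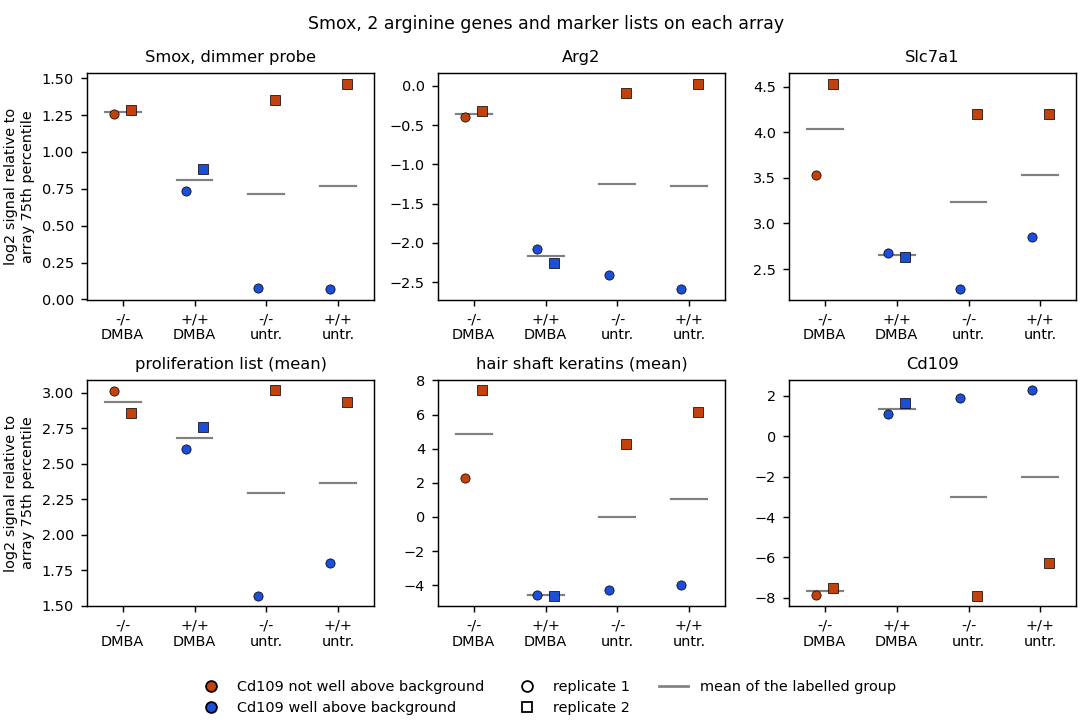
Log2 signal relative to the 75th percentile of each array (vertical axis, a separate range for each panel) of the dimmer *Smox* probe, *Arg2*, *Slc7a1*, the mean of the proliferation list, the mean of the hair shaft keratins and *Cd109* on the 8 arrays, drawn by labelled group as circles (replicate 1) and squares (replicate 2) with grey bars for group means. The 4 orange arrays, without *Cd109* signal well above background, are the 4 highest in all panels but that of *Cd109*, where they are the 4 lowest. *Smox*, *Arg2* and *Slc7a1* passed with the exchange for genotype averaged over treatments, where 30.8% of all probes passed (limma). The exchange follows the *Cd109* signal, so this order is no independent evidence about the genotype.

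*Atp13a3*, a transporter that takes up polyamines, gave 0.08 and 0.91 in CD109-/- skin after DMBA, against −0.94 and −0.95 in CD109+/+ skin after DMBA, and its untreated arrays lay between −1.19 and −0.33. The 2 CD109-/- DMBA arrays were the highest of the 8, and the genotype difference of *Atp13a3* after DMBA was 1.44 (adjusted p = 0.119 as labelled and 0.0497 with the exchange, limma) and passed in 5 of 18 alternatives. *Aoc1*, the diamine oxidase that degrades putrescine, was well above background on the 2 CD109-/- DMBA arrays alone. There its signal exceeded that of the CD109+/+ DMBA arrays at least 3.4-fold, given as a description with no test, since the filter on dim probes let it in only through these arrays, and no fold is given for untreated skin. Both genes lower in CD109-/- skin averaged over treatments with the exchange were *Sat2*, a paralog of *Sat1* (−0.41, SE 0.11, adjusted p = 0.0359), and *Slc22a3*, an organic cation transporter (−1.26, SE 0.33, adjusted p = 0.0369, limma), which passed in 8 of 18 and 9 of 17 alternatives. *Slc22a3* was not well above background on CD109-/- DMBA replicate 2 (−5.08), so its difference rests in part on a value near background.

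*Amd2*, the close relative of *Amd1* that held 3 probes of this step of the pathway, gave 3.89 and 3.90 on its brightest probe in CD109-/- skin after DMBA, against 4.12 and 4.20 in CD109+/+ skin after DMBA, and its untreated arrays lay between 3.77 and 4.07. *Amd2* is named for its place in the pathway after its values were seen. The difference after DMBA was −0.27 (SE 0.16, adjusted p = 0.316 as labelled, limma) and did not pass, while the dimmest of its 3 probes gave −0.60 and passed with the exchange (adjusted p = 0.0419). The sequence similarity of *Amd1* and *Amd2* means that signal from the 2 genes may be shared.

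Over the 8 arrays and 16763 genes, the genes whose pattern was most like that of *Odc1* were *Reg3d* (Pearson r = 0.989), *Tubb2b* (0.949), *Add2* (0.933), *Tagln2* (0.924) and *Rwdd1* (0.923). Among those most like *Arg1* were *Paqr8* (0.984), *Sort1* (0.984), *Ctif* (0.984) and *Nipal3* (0.983). These correlations rest on 8 arrays of 4 groups that share 1 slide, and they are a description with no test.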

How the data were processed

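Total RNA of whole skin was labelled with Cy3 and hybridised to 8 one-colour arrays, 2 per group. The deposited scanner files hold spot intensity from Agilent Feature Extraction 11.5.1.1, already background-corrected by the authors' scanner software, and a deposited value table of intensity scaled per array was used as an alternative. Control spots and outlier spots were removed, spots of a probe averaged, and log2 intensity taken relative to the 75th percentile of each array, so all levels are relative. 94.1% of the 29684 probes with a RefSeq accession were named. A probe was tested if both arrays of any group had it well above background, in the scanner's own call. The test was limma 3.58.1 (R 4.3.3) in 1 fit of 8 arrays, with Benjamini-Hochberg adjustment. The fit was tested on simulated data with independent noise, whose spread was taken from the DMBA groups alone. That run therefore says nothing about the spread of the untreated groups.

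The members and lists were chosen with earlier results of these data known. Text names *Cd109*, every member probe, other polyamine genes that passed in either arrangement, and the 5 genes most like *Odc1* and *Arg1*, of which 1 is not reported here. Alternatives covered scaling, background (normexp, offset 50), filters, the test, the deposited table, the replicate block and each array left out. The alternative with only the arrays compared repeats the main fit for averaged values and for the difference of the DMBA effect, which use all 8 arrays. It is still counted among the alternatives there. Between 63.6 and 67.0% of spots were well above background on each array, and 2 arrays per group limit the precision.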

Additional observations from a re-analysis of the deposited data

How the results depend on the processing

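As labelled, the count of member genes that passed stayed at 0 in all 7 comparisons under every scaling, background, filter and value-table alternative, with the 2 doubtful arrays left out and with each array left out in turn (0 to 0 genes). The replicate block also gave 0 in all 7. It raised the calls over all probes for genotype after DMBA to 1596, against 34 without it. Correlations of deviations by replicate number were uneven, from −0.082 to 0.731 over 6 pairs of groups. The methods' t-test, unadjusted, gave 1 gene for genotype after DMBA and 3 for DMBA in CD109+/+ skin. The exchange of the 2 untreated arrays gave 2 for genotype after DMBA, 1 for genotype in untreated skin, 1 for DMBA in CD109+/+ skin and 2 for genotype averaged over treatments.

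The other alternatives with the exchange were chosen after seeing the data. For genotype after DMBA (2 genes, 20.1% of all probes), normexp background gave 4 (40% of all probes), the mean of a gene's probes 1 (19%), no filter on dim probes 0 (5.67%), only the arrays compared 0 (0%), and the methods' t-test 0 adjusted (0%) and 1 unadjusted (18.9%). Median centring (29.7% of all probes) gave 3 other genes, *Oaz1* (−0.64), *Oaz2* (−0.59) and *Srm* (−0.86), all lower, in place of *Azin1* and *Smox* (0.43 and 0.21, not past the threshold). It shifted the median of all probes to −0.26, against 0.07, and the share of higher calls to 24.5%, against 57.8% (74.2% with the value table). As labelled that share was 17.6%, against 4.0% with quantile normalization and 6.7% with median centring. For genotype in untreated skin (1 gene, 8.89%), the methods' t-test gave 0 adjusted (0.0108%) and 3 unadjusted (24.6%). For DMBA in CD109+/+ skin (1 gene, 3.51%), normexp gave 2 (6.6%), limma with trend and robust variance 2 (6.72%), the methods' t-test 0 adjusted (0.00269%) and 2 unadjusted (20.8%), while quantile normalization, no filter, only the arrays compared and the deposited values each gave 0 (2.94%, 0.683%, 0.188% and 3.11%). For the difference of the DMBA effect (0 genes, 0.0269%), normexp gave 1 (*Smox*, 2.84%) and the methods' t-test unadjusted 2 (19.7%). For genotype averaged over treatments (2 genes, 30.8%), normexp gave 4 (32.4%), the trend and robust fit 4 (34.5%), the methods' t-test 1 adjusted (14.4%) and 4 unadjusted (41.9%), no filter 1 (13.1%) and the mean of probes 1 (29.8%). For DMBA averaged over genotypes (0 genes, 1.5%), the methods' t-test unadjusted gave 2 (20.2%). Other scalings also moved the share of higher calls by over 10 points for DMBA in CD109+/+ skin (81.5% with median centring, against 67.6%), the difference of the DMBA effect (23.9% with quantile normalization and 13.4% with median centring, over 67 calls each, against 40.0% of 10 calls) and genotype averaged over treatments (31.4% with median centring and 64.7% with the value table, against 48.7%). Among few calls it also moved for DMBA in CD109-/- skin with the exchange (1 of 4 calls with median centring, against 2 of 5) and for DMBA averaged over genotypes as labelled (66.7% of 15 calls with quantile normalization or the value table, against 81.8% of 11). The causes were not tested.

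Leaving out 1 array with the exchange leaves 1 array in its group, so only differences are given here. Which genes passed depended on the array left out. After DMBA the differences ran from 0.52 to 0.99 for *Azin1* and from 0.44 to 0.63 for *Smox*. Those of *Smox* ran from 1.26 to 1.30 in untreated skin and from 0.68 to 0.83 for DMBA in CD109+/+ skin. Averaged over treatments, the genotype differences ran from 0.43 to 0.66 for *Azin1* and from 0.86 to 0.96 for *Smox*.

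Differences near 0 reversed. After DMBA, *Sat1* became 0.0611 with quantile normalization and 0.0705 with the value table, and *Sms* −0.0701 with median centring. *Smox* in untreated skin as labelled became −0.0128 with the mean of its probes. Leave-one-out ranges were −0.49 to 0.10 for *Odc1*, −0.40 to 0.23 for *Sat1* and −0.0195 to 0.54 for *Sms* after DMBA, and −0.62 to 0.67 for *Smox* in untreated skin.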
